A study of Rattus norvegicus with 18 samples.

Results

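Genes of mast cells and eosinophils were followed along the rat colon. The set held 9 gene symbols: Mcpt1, Mcpt2, Mcpt10, Cpa3, Fcer1a, Ms4a2, Kit, Prg2 and Hdc. Every probe set that the array annotation assigned to exactly 1 of these symbols was taken, which gave 9 probe sets of 8 genes, out of 31042 probe sets on the array. No probe set was assigned to Mcpt2. Of the 9 probe sets, 8 passed the filter on low signal (1 for each of the 8 genes), and a second probe set of Ms4a2 did not.

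Mucosa was scraped from the colon of 9 rats (Sprague Dawley, male; rats 1 to 8 and 10), with 1 array of distal and 1 array of proximal colon from each animal. After 10 days on modified AIN-93G diet, each rat was given azoxymethane, a colon carcinogen, under the skin at 15 mg per kg and was killed 6 h later. Every array therefore comes from a carcinogen-treated animal, and the values say nothing of what the injection changed. In each region 4 cm of mucosa was scraped, and such a scraping can hold stroma and muscle besides epithelium. The design text speaks of 2 allocation groups, which the labels used here do not assign to rats.

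Mast cells are tissue-resident immune cells that store proteases and histamine in granules and release them when IgE on their surface binds its antigen. Mast cells of the intestinal mucosa differ from those of connective tissue in the proteases they store. Eosinophils are granulocytes that reside in the healthy gut wall and carry strongly basic granule proteins. The set covers granule proteases (Mcpt1, Mcpt2, Mcpt10 and Cpa3), subunits of the high-affinity IgE receptor (Fcer1a and Ms4a2), the receptor for stem cell factor (Kit), the enzyme that makes histamine (Hdc) and the eosinophil granule major basic protein (Prg2).

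In the RefSeq rat annotation (GRCr8), Mcpt9, Mcpt1, Mcpt1l1 and Mcpt10 follow each other on chromosome 15, in a cluster that runs from Cma1 past Ctsg to granzyme genes. That annotation lists both rMCP-1 and rMCP-2 as other names of Mcpt1, so the symbol does not settle which of these rat proteases a reader may know it by. Genes of such a cluster resemble each other, and cross-hybridization between them was not tested. The RefSeq promoter table held 5 of the 9 members, namely Mcpt1, Cpa3, Fcer1a, Kit and Hdc. Each entry runs from 250 bases before to 50 bases after the start of the gene. All 5 are shown. The signal of each was lower in distal colon in at least 7 of 9 rats, but only Fcer1a and Kit were called in the main test given below. Capitals mark matches to AGATAA or TGATAA, read on both strands, 2 words that GATA factors are known to bind.
Mcpt1, chr15:33841356-33841655, plus strand: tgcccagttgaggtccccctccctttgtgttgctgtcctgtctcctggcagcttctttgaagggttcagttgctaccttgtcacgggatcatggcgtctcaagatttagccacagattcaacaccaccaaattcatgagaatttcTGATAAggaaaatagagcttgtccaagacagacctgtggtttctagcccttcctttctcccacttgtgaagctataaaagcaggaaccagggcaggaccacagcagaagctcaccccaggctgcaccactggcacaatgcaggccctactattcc
Cpa3, chr2:104673188-104673487, minus strand: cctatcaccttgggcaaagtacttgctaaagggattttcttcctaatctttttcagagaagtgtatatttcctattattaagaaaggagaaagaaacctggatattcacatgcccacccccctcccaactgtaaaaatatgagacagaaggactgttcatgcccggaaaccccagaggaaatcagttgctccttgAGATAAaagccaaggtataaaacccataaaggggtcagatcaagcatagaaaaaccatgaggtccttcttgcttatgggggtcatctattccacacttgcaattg
Fcer1a, chr13:88224630-88224929, minus strand: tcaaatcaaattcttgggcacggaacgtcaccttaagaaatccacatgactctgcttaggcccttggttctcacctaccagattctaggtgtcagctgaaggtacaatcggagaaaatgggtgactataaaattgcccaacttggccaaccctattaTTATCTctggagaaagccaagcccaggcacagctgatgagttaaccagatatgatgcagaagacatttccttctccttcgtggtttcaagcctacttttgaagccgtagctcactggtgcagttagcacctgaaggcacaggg
Kit, chr14:32978763-32979062, minus strand: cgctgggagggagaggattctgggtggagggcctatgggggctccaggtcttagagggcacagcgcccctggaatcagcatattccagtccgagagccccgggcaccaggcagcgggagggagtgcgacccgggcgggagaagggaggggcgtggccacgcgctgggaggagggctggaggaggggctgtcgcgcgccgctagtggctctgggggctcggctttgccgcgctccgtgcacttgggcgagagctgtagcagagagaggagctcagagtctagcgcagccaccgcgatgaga
Hdc, chr3:134318655-134318954, minus strand: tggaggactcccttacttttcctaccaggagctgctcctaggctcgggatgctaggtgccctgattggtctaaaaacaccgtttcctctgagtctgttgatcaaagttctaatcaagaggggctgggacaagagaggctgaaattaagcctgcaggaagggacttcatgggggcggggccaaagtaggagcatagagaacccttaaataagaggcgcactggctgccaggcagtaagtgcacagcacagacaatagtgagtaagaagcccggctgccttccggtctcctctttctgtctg
The match began 105 bases before the start in Mcpt1, 55 bases before it in Cpa3 and 93 bases before it in Fcer1a. These words stood in 18.9% of 33469 rat promoters of the same length, and neither Kit nor Hdc held one. E-box words (CATGTG or CACGTG, both strands) and TATAAA were searched too and are not marked. The E-box words matched in Cpa3 and Fcer1a (19.7% of all promoters), and TATAAA in Mcpt1, Cpa3 and Fcer1a (8.8%). The promoter of Mcpt9, a gene of the cluster that is no member, was searched as well and held none. A match is a string of letters, not a bound site.

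Log2 signals below are log2(intensity + 16) after quantile normalization, and differences are distal minus proximal colon on that scale. A gene was called at a limma adjusted p below 0.05, adjusted by Benjamini-Hochberg over all 21729 probe sets tested. Of 11407 genes tested, 16.2% were called higher in distal colon and 14.5% higher in proximal colon (30.8% in either direction). With the deposited scaling these shares were 3.95% and 13.6% (4.97% and 15.6% with rat as a block as well), and the median difference of all genes was -0.10, against 0.01 after quantile normalization. The 21 epithelial markers tested had a mean log2 signal of 12.40 to 12.59 over the distal and 12.64 to 12.89 over the proximal arrays. Marker signals of other cells differed between arrays. The mean log2 signal of 14 smooth muscle markers was 10.20 and 10.14 in distal colon of rats 3 and 7 and 12.36 in proximal colon of rat 3, against 7.07 to 9.06 in the other arrays. The proximal arrays of rats 3 and 6 had stood apart in an earlier analysis of these data, and results are given with and without them.

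Of the 8 members measured, 1 was called higher in distal and 3 in proximal colon, against backgrounds of 16.2% and 14.5%. Mcpt10, Fcer1a and Kit were lower in distal than in proximal colon, and Prg2 was higher in distal colon. Fcer1a passed the filter on low signal only through its proximal arrays. With no filter neither Fcer1a nor Kit was called (limma adjusted p = 0.055 and 0.0722). The remaining 4 members, Mcpt1, Cpa3, Ms4a2 and Hdc, were not called, and the median difference of the 8 members was -0.44 (-0.57 with the deposited scaling). With rat as a block, which compares the 2 arrays of each animal, Mcpt1, Mcpt10, Cpa3 and Fcer1a were called higher in proximal and Prg2 in distal colon, against backgrounds of 17.4% and 19.5% (36.8% in either direction), while Kit was not called. In tissue scrapings fewer cells of a type and less RNA per cell cannot be told apart.

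**Figure D1:**
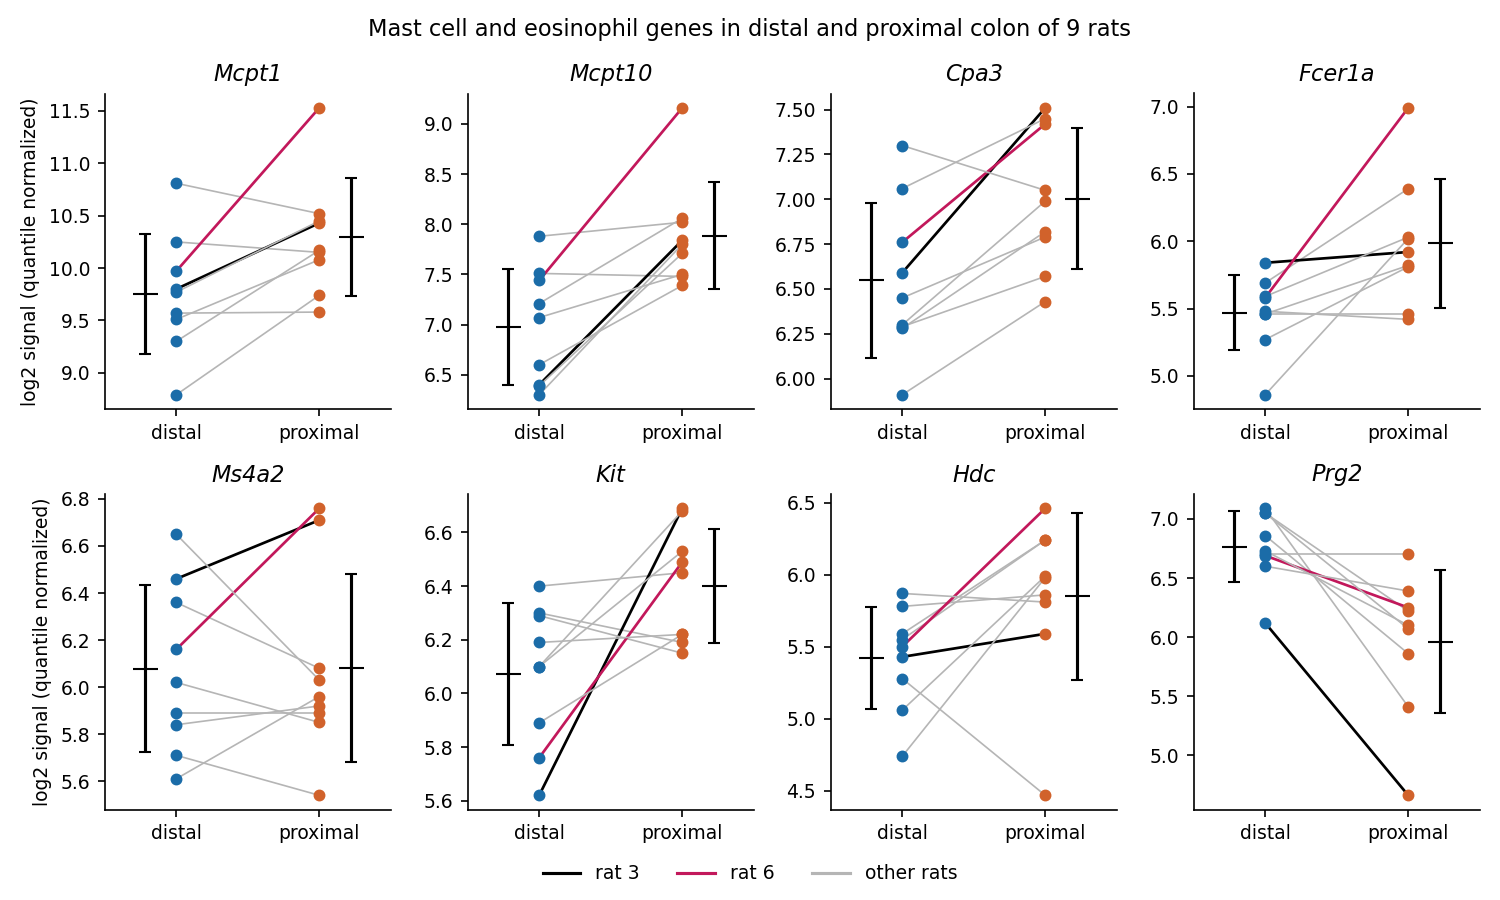
Log2 signal of the 8 measured members, with a point for each array, a line joining the distal (left) and proximal (right) array of each rat, and bars showing mean and SD (n = 9 each). Mcpt10 had a mean of 6.98 in distal and 7.88 in proximal colon, while Prg2 ran the other way, with 6.77 in distal and 5.96 in proximal colon.

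Mcpt10 encodes a granule serine protease of the Mcpt8 group of rat mast cell proteases. Its log2 signals ran from 6.30 to 7.88 (median 7.07) in distal colon and from 7.39 to 9.16 (median 7.80) in proximal colon. The ranges overlapped, but 6 distal arrays lay below every proximal array, and the proximal array of rat 6 was far above the others. Means were 6.98 ± 0.58 in distal and 7.88 ± 0.53 in proximal colon (SD, n = 9 each), a difference of -0.91 ± 0.24 (SE; limma adjusted p = 0.00839), or 1.87-fold. Proximal colon was higher in 8 of 9 rats, and in rat 1 the 2 arrays were nearly equal (7.51 in distal and 7.48 in proximal colon). Leaving out the proximal arrays of rats 3 and 6 gave -0.73 (limma adjusted p = 0.018), and leaving out both arrays of rat 6 gave -0.81 (limma adjusted p = 0.00939). A further probe set, annotated to 4 protease genes of the cluster at once and therefore no member, was lower in distal colon in 9 of 9 rats (8.72 ± 0.51 in distal and 9.75 ± 0.48 in proximal colon, SD, n = 9 each). It measures no single gene.

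Mcpt1, the other serine protease measured, was less far toward proximal colon than Mcpt10, as tested within rats further on. Its log2 signals were 8.79 to 10.81 (median 9.77) in distal colon and 9.58 to 11.53 (median 10.17) in proximal colon. All but 1 proximal array, that of rat 6, lay within the distal range. The means were 9.75 ± 0.57 in distal and 10.30 ± 0.56 in proximal colon (SD, n = 9 each), and the difference of -0.54 ± 0.24 (SE) was not called (limma adjusted p = 0.108). It passed with rat as a block (limma adjusted p = 0.0232), with proximal colon higher in 7 of 9 rats. Distal colon of rat 4 (10.81) exceeded its proximal partner (10.52), as did that of rat 1 (10.25 in distal and 10.15 in proximal colon). With the proximal arrays of rats 3 and 6 left out it was -0.35 (limma adjusted p = 0.278).

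Cpa3 encodes the mast cell carboxypeptidase, which is stored in granules together with the serine proteases. Its log2 signals ran from 5.91 to 7.30 (median 6.45) in distal colon and from 6.43 to 7.51 (median 6.99) in proximal colon. Most arrays overlapped between the regions, yet within animals proximal colon was higher in 8 of 9 rats, the exception being rat 7 (7.30 in distal and 7.05 in proximal colon). Means were 6.55 ± 0.43 in distal and 7.00 ± 0.39 in proximal colon (SD), and the difference was -0.46 ± 0.18 (SE, n = 9 each; limma adjusted p = 0.0744). With rat as a block the SE was 0.11 and the adjusted p from limma 0.00841, and the exact permutation of signs within rats gave p = 0.00781. Without the 3 arrays of highest smooth muscle score the difference was -0.51 (limma adjusted p = 0.0454), and with the proximal arrays of rats 3 and 6 left out it was -0.32 (limma adjusted p = 0.225).

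Of the 2 subunits of the IgE receptor, Fcer1a was called and Ms4a2 was not, and within rats their regional differences were -0.51 ± 0.66 apart (Fcer1a minus Ms4a2, SD over 9 rats; exact permutation p = 0.0352, adjusted p = 0.0757). Fcer1a, the subunit that binds IgE, had log2 signals of 4.86 to 5.84 (median 5.48) in distal colon and 5.42 to 6.99 (median 5.92) in proximal colon. In proximal colon 5 arrays lay above every distal array, with rat 6 highest and rat 1 next (6.39). Means were 5.47 ± 0.28 in distal and 5.98 ± 0.48 in proximal colon (SD), and the difference was -0.51 ± 0.18 (SE, n = 9 each; limma adjusted p = 0.0413), or 1.43-fold, and proximal colon was higher in 7 of 9 rats. Many of these signals were near the filter level of 5.54, and the distal mean lay below it. Fcer1a thus passed the filter only through its proximal arrays. The adjusted p was 0.0907 with the proximal arrays of rats 3 and 6 left out, 0.0712 with the 3 arrays of highest smooth muscle score left out, 0.0578 with arrays centred on their medians and 0.055 with no filter (limma). Leaving out 1 rat at a time gave adjusted p-values of 0.0317 to 0.105, and the call was lost in 6 of 9 cases (without rat 1, 4, 5, 6, 7 or 8).

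Ms4a2, the beta subunit, which amplifies the signal of the receptor, had log2 signals of 5.61 to 6.65 (median 6.02) in distal and 5.54 to 6.76 (median 5.96) in proximal colon. The 2 regions covered nearly the same range. Means were 6.08 ± 0.35 and 6.08 ± 0.40 in distal and proximal colon (SD, n = 9 each; SE of the difference 0.17, limma adjusted p = 0.988). The second Ms4a2 probe set, below the filter and not tested, had 5.24 ± 0.18 in distal and 4.98 ± 0.31 in proximal colon (SD, n = 9 each). An adjusted p this high does not show equal levels.

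Kit encodes the receptor tyrosine kinase on which mast cells depend for survival, and interstitial cells of Cajal, the pacemaker cells of gut muscle, carry it too. Its log2 signals were 5.62 to 6.40 (median 6.10) in distal colon and 6.15 to 6.69 (median 6.45) in proximal colon. In distal colon 5 arrays lay below every proximal array, and the lowest distal and the highest proximal value both came from rat 3. Means were 6.07 ± 0.26 in distal and 6.40 ± 0.21 in proximal colon (SD), and the difference was -0.33 ± 0.12 (SE, n = 9 each; limma adjusted p = 0.047), or 1.26-fold, in 7 of 9 rats. With rat as a block and with no filter the difference was still -0.33, but it was no longer called (limma adjusted p = 0.0824 and 0.0722). It was -0.28 with the proximal arrays of rats 3 and 6 left out (limma adjusted p = 0.125) and -0.21 without the 3 arrays of highest smooth muscle score (limma adjusted p = 0.209), which is a smaller difference as well as a lost call. Leaving out 1 rat at a time gave differences of -0.39 to -0.24 and adjusted p-values of 0.0348 to 0.128, and the call was lost without rat 3, 5, 6, 7, 8 or 10. Among 6 tested markers of interstitial cells of Cajal, 2 were called higher in distal colon (Thbs4 and Ano1) and 1 in proximal colon (Elovl6), all of which other cells express as well. The shares were 33.3% and 16.7%, against backgrounds of 16.2% and 14.5%. The other 3 markers were not called, at -0.55 (Etv1), -0.57 (Gja1) and -0.07 (Prkcq), and the median of the 6 differences was -0.31. The summed linear signal of the 6, in which Thbs4 and Ano1 run against the other 4, was 5105 to 6979 in distal and 2135 to 4453 in proximal colon. For 14 smooth muscle markers the sum was 7212 to 22215 in distal and 6604 to 91669 in proximal colon, and 0 of them were called by limma (1 at an unadjusted p below 0.05). The part of these cells in the Kit values was not tested.

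Hdc encodes histidine decarboxylase, the only enzyme that makes histamine. Its log2 signals ran from 4.74 to 5.87 (median 5.50) in distal colon and from 4.47 to 6.46 (median 5.98) in proximal colon. In proximal colon 5 arrays lay above every distal array, but that of rat 10 was the lowest of all 18. Means were 5.42 ± 0.35 in distal and 5.85 ± 0.58 in proximal colon (SD). The distal mean lay below the filter level of 5.54, so Hdc passed the filter only through its proximal arrays. The difference of -0.43 ± 0.22 (SE, n = 9 each) was not called (limma adjusted p = 0.159), nor was it with rat as a block (limma adjusted p = 0.12). Leaving out 1 rat at a time gave differences of -0.58 to -0.32 and limma adjusted p-values of 0.0171 to 0.335. It was not called in 8 of 9 cases, the exception being without rat 10. Endocrine cells of the stomach also use Hdc, and markers of gut endocrine cells were called higher in distal colon for 0 and in proximal colon for 11 of 15 genes tested (limma; 0 and 13 at an unadjusted p below 0.05). The 11 were 73.3% of the 15, against a background of 14.5%. The summed linear signal of the 15 was 2234 to 3609 in distal and 5056 to 9812 in proximal colon, highest in proximal colon of rat 6. That array was the highest proximal array for 5 of the 8 members, Hdc among them. The part of endocrine cells in the Hdc values was not tested.

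Prg2 was the only member called higher in distal colon. It encodes major basic protein, which fills the crystalline core of eosinophil granules. Its log2 signals were 6.12 to 7.09 (median 6.73) in distal colon and 4.66 to 6.70 (median 6.10) in proximal colon. In distal colon 5 arrays lay above every proximal array, and the other 4, those of rats 1, 3, 6 and 7, overlapped with proximal arrays. Means were 6.77 ± 0.30 in distal and 5.96 ± 0.60 in proximal colon (SD, n = 9 each), a difference of 0.80 ± 0.21 (SE; limma adjusted p = 0.00805), or 1.75-fold. Distal colon was higher in 8 of 9 rats, and in rat 1 both arrays had 6.70. The lowest signal of each region came from rat 3, whose arrays had the highest smooth muscle score of their region. Over the 18 arrays, with region means taken off, Prg2 had r = -0.69 with the mean signal of smooth muscle markers. With B and plasma cell markers r was 0.60 (0.27 in distal and 0.68 in proximal colon). With further eosinophil genes it was 0.43 (-0.18 in distal and 0.59 in proximal colon). The part of other cells in the Prg2 values was not tested. The Prg2 difference was 0.66 with the proximal arrays of rats 3 and 6 left out (limma adjusted p = 0.00777) and 0.76 without the 3 arrays of highest smooth muscle score (adjusted p = 0.00149). With the deposited scaling it was 0.69 (adjusted p = 0.0268).

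**Figure D2:**
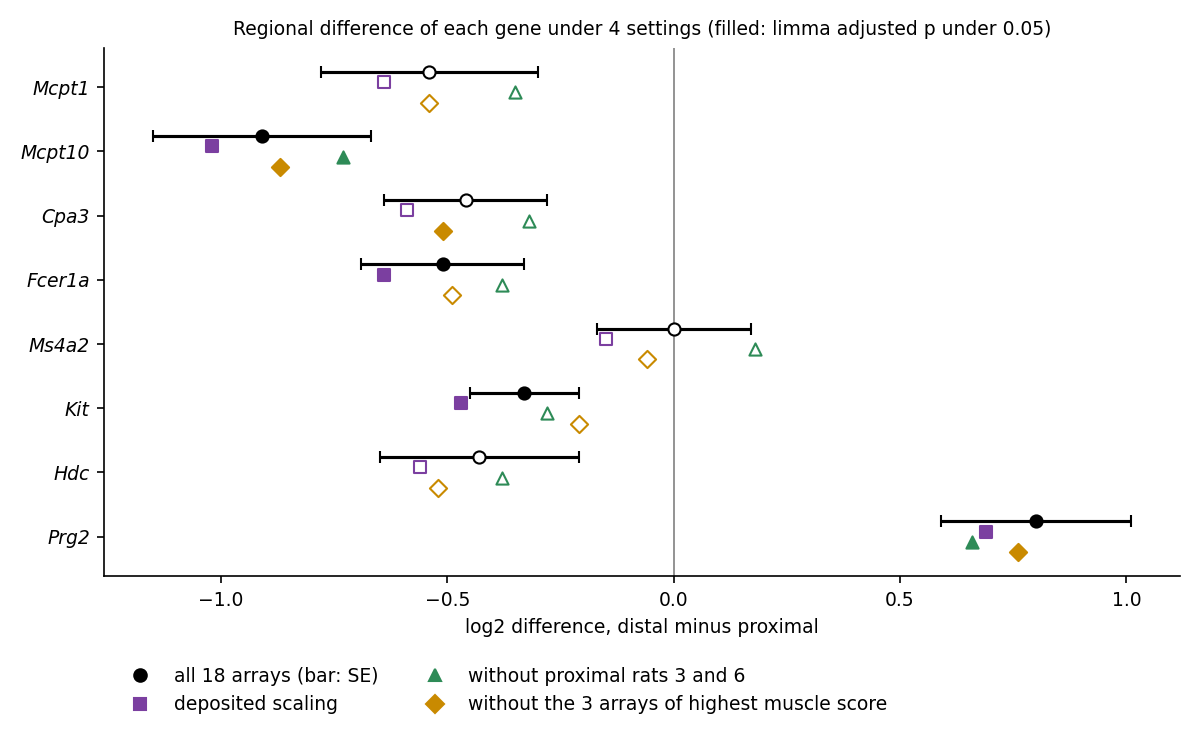
Difference of each member (distal minus proximal, log2) with all 18 arrays, where bars are SE, with the deposited scaling, and without the arrays that stood apart. Filled symbols have a limma adjusted p below 0.05. Mcpt10 and Prg2 stay filled under all 4 settings, while Fcer1a and Kit are open once arrays are left out.

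The signed regional differences were then compared between members within each rat. An exact permutation of signs over the 9 rats was used for 28 pairs of members (two-sided), and 11 pairs passed after Benjamini-Hochberg adjustment. Mcpt10 was further toward proximal colon than Mcpt1 in 9 of 9 rats, by 0.36 ± 0.23 (first minus second 0.36 for Mcpt1 minus Mcpt10, SD over 9 rats; exact p = 0.00391, the smallest the design allows, adjusted p = 0.0243). Cpa3 was further toward proximal colon than Ms4a2 by 0.45 ± 0.23, again in 9 of 9 rats (first minus second -0.45; exact p = 0.00391, adjusted p = 0.0243). Prg2 differed from all 7 other members, by 1.71 ± 1.03 from Mcpt10 (first minus second -1.71; exact adjusted p = 0.0243) and by 0.81 ± 0.75 from Ms4a2 (first minus second -0.81; exact adjusted p = 0.0328). These tests were added after the values had been seen.

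Members also varied from rat to rat. Relations were examined separately over 9 distal and 9 proximal arrays, and between the 2 regions, 64 in all, with exact permutation of pairings (two-sided). By Pearson's r, 3 passed after adjustment over the 64 (12 before adjustment), and by Spearman's rho 0 did (10 before adjustment). Rats with more Cpa3 in distal colon also had more Ms4a2 there (r = 0.89, exact p = 0.00103, adjusted p = 0.0349; rho = 0.90, exact p = 0.00203, adjusted p = 0.0649), and r was 0.79 without the 2 rats farthest from the Cpa3 median. In proximal colon the same pair had r = 0.73 (rho = 0.73; exact p = 0.0256 and 0.0311, adjusted p = 0.228 and 0.221). Over the 18 arrays, with region means taken off, Cpa3 and Ms4a2 also varied with the mean signal of other lists. For further mast cell granule and receptor genes r was 0.58 and 0.72, and for fibroblast markers 0.53 and 0.61. It was 0.50 and 0.57 for smooth muscle markers and 0.53 and 0.62 for macrophage and dendritic cell markers. In distal colon alone the r with the mast cell list was 0.59 for Cpa3 and 0.73 for Ms4a2, and with fibroblast markers 0.44 and 0.72. The part of fibroblasts, muscle cells, macrophages and dendritic cells in the relation was not tested. Rats with more Mcpt1 in distal colon had more Mcpt10 (r = 0.87, exact p = 0.00109, adjusted p = 0.0349; rho = 0.90, exact p = 0.00203, adjusted p = 0.0649), with r = 0.75 after the 2 farthest rats were left out. Rat 4 was highest and rat 2 lowest for both proteases in distal colon.

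In proximal colon Mcpt1 went with Fcer1a (r = 0.90, exact p = 0.0021, adjusted p = 0.0447; rho = 0.83, exact p = 0.00827, adjusted p = 0.132) and with Mcpt10 (r = 0.89, exact p = 0.00636, adjusted p = 0.102; rho = 0.80, exact p = 0.0138, adjusted p = 0.177). Without the 2 rats farthest from the Mcpt1 median, rat 6 among them, r was 0.57 and 0.53, so both relations rest in part on those rats. Rat 6 had the highest proximal signal for 5 of the 8 members (Mcpt1, Mcpt10, Fcer1a, Ms4a2 and Hdc), and in distal colon for 0 of them. Between the regions, 0 of 8 members passed after adjustment (1 before it, by Pearson's r). That member was Cpa3 (r = 0.68, exact p = 0.0427, adjusted p = 0.228; rho = 0.77, exact p = 0.0214, adjusted p = 0.196), and Mcpt10 had r = 0.36 (exact p = 0.384, adjusted p = 0.677; rho = 0.25, exact p = 0.521, adjusted p = 0.757).

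**Figure D3:**
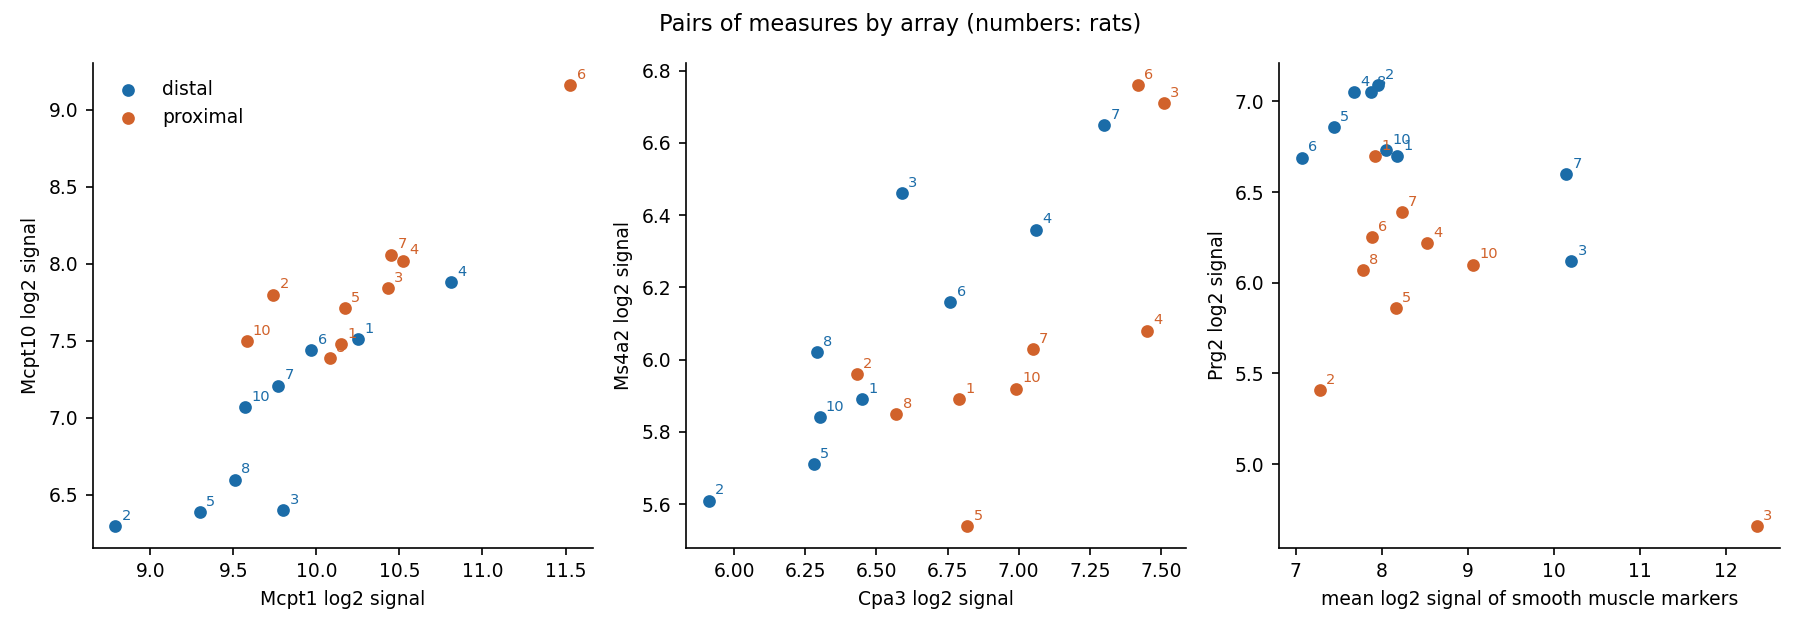
Log2 signals of Mcpt10 against Mcpt1, of Ms4a2 against Cpa3, and of Prg2 against the mean log2 signal of 14 smooth muscle markers, with a point for each distal or proximal array and its rat number. Proximal colon of rat 6 is alone at the top right of the protease plot (11.53 and 9.16), and proximal colon of rat 3 has the lowest Prg2 (4.66) and the highest muscle score (12.36).

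The genes whose signals varied most like those of the members were sought among 11406 other genes, by Pearson's r over the 18 arrays after each region's mean was taken off. These are the highest of many values and are given as a description. Mcpt10 was the nearest gene to Mcpt1 and Mcpt1 the nearest to Mcpt10 (r = 0.88). Mcpt10 also lay near Vch (r = 0.84) and Mcpt9 (r = 0.82), further genes of the chromosome 15 cluster, and then Supt3h (r = 0.78). For Mcpt1, Prkra and Tkt (r = 0.77 each) came before Mcpt9 (r = 0.76). Supt3h, Prkra and Tkt are not genes of that cluster. The gene nearest to Ms4a2 was Kitlg, which encodes stem cell factor, the ligand of Kit (r = 0.84; 0.84 in distal and 0.85 in proximal colon), followed by Kcnj8 (r = 0.84) and Cpa3 (r = 0.81). Cpa3 itself was nearest to Spry4 and Ms4a2 (r = 0.81 each). The nearest to the others were Znrf2 for Fcer1a (r = 0.82), Slc25a23 for Kit (r = 0.79), Nudt14 for Hdc (r = 0.85) and Vcf2 for Prg2 (r = 0.90), none of them a listed mast cell or eosinophil gene.

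Further genes of the same cells were read from lists. Of 14 further mast cell granule and receptor genes that passed the filter, 3 were called higher in distal colon (21.4%, background 16.2%) and 0 in proximal colon (limma; 3 and 2 at an unadjusted p below 0.05). The median difference was -0.00. The 3 were Cd63 and Lamp1, membrane proteins of lysosomes in most cell types, and Ndst2, a sulfotransferase of heparin synthesis. Cd63 had log2 signals of 12.82 ± 0.09 in distal and 12.50 ± 0.09 in proximal colon (SD, n = 9 each; limma adjusted p = 1.77e-05). Mcpt9 differed by -0.44 ± 0.21 (SE; adjusted p = 0.138), Tpsb2, a tryptase, by 0.24 ± 0.26 (adjusted p = 0.546) and Gata2, a transcription factor of mast cells, by 0.04 ± 0.17 (adjusted p = 0.877). Mcpt4, a further protease of the list, differed by 0.21 ± 0.16 (SE, limma adjusted p = 0.367). Below the filter were 8 genes of this list, among them Cma1, a chymase, and Tpsab1, a tryptase, while Tpsb2 and Mcpt4 passed it.

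Downstream of the IgE receptor, 1 of 19 signalling genes was called, Orai1, a calcium channel, which was higher in distal colon (9.75 ± 0.09 in distal and 9.33 ± 0.17 in proximal colon, SD, n = 9 each; limma adjusted p = 9.04e-05). Higher in proximal colon were 0 (0 at an unadjusted p below 0.05). The shares were 5.26% and 0%, against backgrounds of 16.2% and 14.5%. Fcer1g, the signalling subunit of the receptor, differed by -0.16 ± 0.19 (SE; adjusted p = 0.584).

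Of 11 genes of histamine, prostaglandin D2 and leukotriene handling, 1 was called higher in distal and 2 in proximal colon. The shares were 9.09% and 18.2%, against backgrounds of 16.2% and 14.5%. Slc22a3, a transporter that takes up histamine and other amines, was 2.42-fold lower in distal colon, with log2 signals of 6.12 to 7.31 in distal and 7.37 to 8.44 in proximal colon, so that the groups did not overlap (limma adjusted p = 4.7e-06). Aoc1, the diamine oxidase that breaks down extracellular histamine, was 1.69-fold lower in distal colon, in 9 of 9 rats (11.19 ± 0.53 in distal and 11.95 ± 0.34 in proximal colon, SD, n = 9 each; adjusted p = 0.0057). Lta4h, an enzyme of leukotriene B4 synthesis, was 1.31-fold higher in distal colon (adjusted p = 0.00452). Hpgds, the prostaglandin D2 synthase of mast cells, differed by -0.41 ± 0.17 (SE; adjusted p = 0.0751).

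Among 19 genes of growth and recruitment, 1 was called in each direction (5.26% each, backgrounds 16.2% and 14.5%). Il18, an interleukin also made by the epithelium, was 1.42-fold higher in distal colon (adjusted p = 0.00955), and the chemokine Ccl5 was 1.45-fold lower there (limma adjusted p = 0.00696). Kitlg differed by -0.03 ± 0.08 (SE; adjusted p = 0.804), with log2 signals of 10.16 to 10.57 in distal and 10.26 to 10.80 in proximal colon. Ccl11, the eosinophil-attracting chemokine eotaxin, varied widely, from 5.17 to 8.91 in distal and from 4.61 to 10.80 in proximal colon (difference -0.66 ± 0.71, SE; adjusted p = 0.539).

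Most further eosinophil genes had low signals. Of 11 with a probe set, 6 lay below the filter, among them Epx, the eosinophil peroxidase, and the receptors Ccr3 and Il5ra. Of the 5 tested, Cd24, which epithelial cells also carry, was called higher in distal colon (20%, background 16.2%, limma adjusted p = 0.00943). In proximal colon 0 were called higher (0 at an unadjusted p below 0.05). The others tested differed by -0.31 (Csf2rb), -0.22 (Siglec5), -0.07 (Itgax) and 0.29 (Ptger4), and the median of the 5 was -0.07. Of 12 pan-leukocyte markers, 1 was called higher in distal colon (8.33%, background 16.2%) and 0 in proximal colon (limma, with 1 and 0 at an unadjusted p below 0.05). Their summed linear signal was 3838 to 14255 in distal and 3364 to 14338 in proximal colon.

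**Figure D4:**
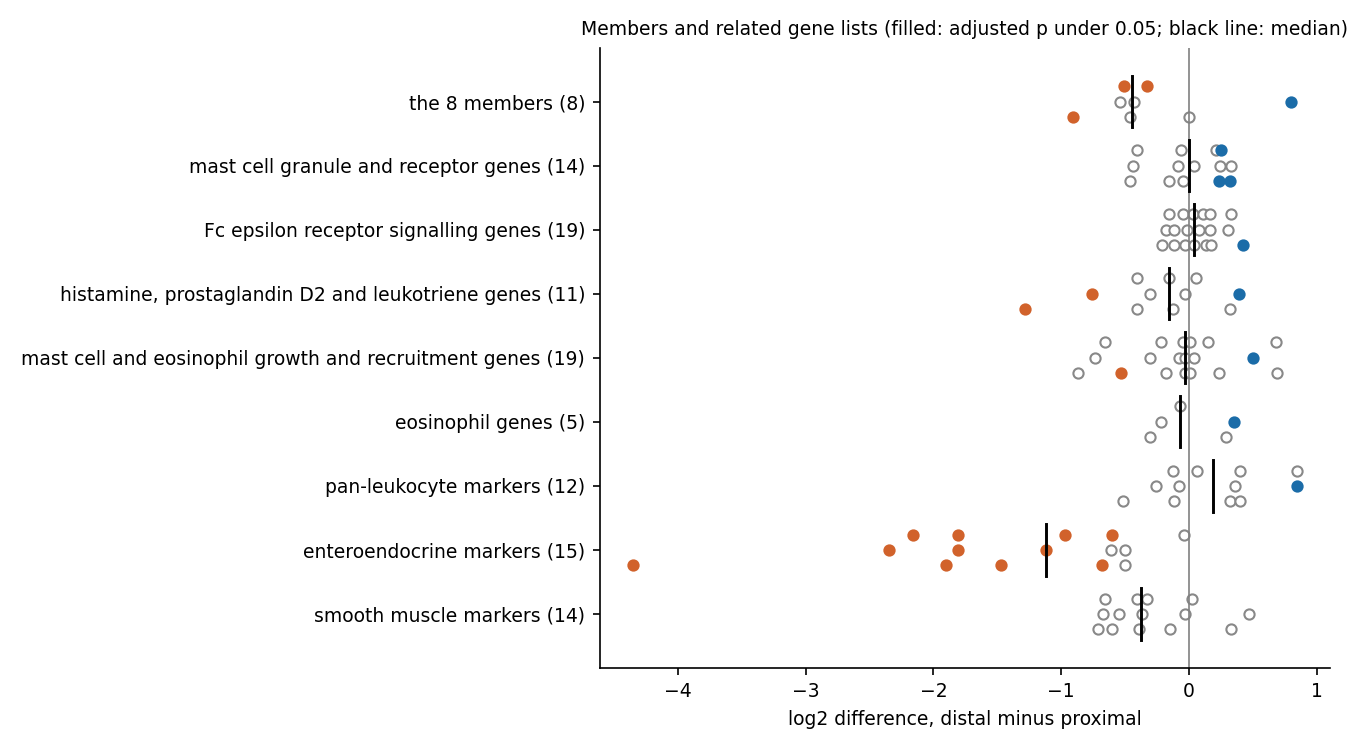
Difference (distal minus proximal, log2) of each tested gene in the member set and in 8 related lists, with the number of genes in brackets, filled symbols for an adjusted p below 0.05 and a black line for the median. The median was -0.44 for the 8 members, -0.00 for other mast cell granule and receptor genes and -1.12 for enteroendocrine markers.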

How the data were processed

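The authors deposited probe set intensities on a linear scale, 1 column per array. Per the submitters' processing notes, MAS5 was used; neither its version nor a scaling target is given in the sources used here. Trimmed means (2% at each end) ran from 210.3 to 341.2, so log2(intensity + 16) values were quantile normalized. The lowest 30% of probe sets by mean (below 5.54) were left out. Distal minus proximal colon was fitted with limma 3.58.1 (R 4.3.3; lmFit, eBayes with trend, two-sided, Benjamini-Hochberg) without a block, on all 18 arrays. The number of arrays limits the precision. A gene was represented by its tested probe set with the highest mean, and symbols came from the array annotation (20826 probe sets with 1 symbol, 436 with several, 9780 unnamed here). Rat numbers pair arrays of the same animal per the labels; deviations from region means correlated with r from 0.000945 to 0.569 within rats (above 0.1 in 6 of 9). Columns of no sample numbered 0.

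The text names all members, up to 4 called genes with the largest differences and up to 2 with the highest signal in each list, and up to 4 genes most like each member; other list genes were named after their values were seen, as were the pairwise tests between members. Members and lists were chosen with earlier results of these data known. Python 3.11.15, numpy 2.4.6, pandas 2.3.3 and matplotlib 3.10.9 were used for the rest. The fit was tested on simulated data. Alternatives covered scaling, pseudocount, filter, rat as a block, left-out rats or arrays, and the mean of probe sets.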

Additional observations from a re-analysis of the deposited data

Results flagged for a closer look

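Dixon's criterion for a value far from the others of its group was applied to the 9 probe sets in each region, 18 groups of 9 arrays, and chance alone marks about 1 group in 20. It marked 3. Proximal colon of rat 6 had a log2 signal of 11.53 for Mcpt1, against 10.52 in the next rat, and 9.16 for Mcpt10, against 8.06 in the next rat. Proximal colon of rat 10 had 4.47 for Hdc, against 5.59 in the next rat.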

How the results depend on the processing

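The numbers of members called (1 higher in distal and 3 in proximal colon) were 0 and 1 with the lowest 50% of probe sets left out, where Prg2, Fcer1a, Kit, Ms4a2 and Hdc were no longer tested. With no filter, and also when the proximal arrays of rats 3 and 6 were left out, 1 member was called higher in proximal colon. Leaving out 1 rat gave 1 in distal and 1 to 3 in proximal colon. Mcpt10 passed under all 21 alternatives and Prg2 under all 20 in which it was tested. The Ms4a2 difference was -0.08 to 0.07 when 1 rat was left out, and 0.18 when the proximal arrays of rats 3 and 6 were left out, so it has no direction. Mcpt1, Mcpt10, Cpa3, Fcer1a, Kit, Hdc and Prg2 kept theirs under each alternative run. With rat as a replicate block (Mcpt1 adjusted p = 0.0232, Cpa3 0.00841, Kit 0.0824) no other member's call changed. Over all genes, 1853 were called in the distal and 1657 in the proximal direction, against 451 and 1552 with the deposited scaling, and 567 and 1784 with the deposited scaling and rat as a replicate block. With no filter they were 1782 and 1628, and with the lowest 50% left out 1827 and 1510, where the number of genes tested differs. Without the proximal arrays of rats 3 and 6 they were 1711 and 1653. Leaving out 1 rat gave 1586 to 1891 in the distal and 1426 to 1775 in the proximal direction. Relations past an adjusted p of 0.05 numbered 3, and 5 with the deposited scaling. The distal means of Fcer1a and Hdc (5.47 and 5.42) lay below the filter level of 5.54, so both passed the filter only through their proximal arrays. Prg2 lay below that level in proximal colon of rats 2 and 3 (5.41 and 4.66). This limits what the values of these members can show. The Prg2 difference was 1.06 with a pseudocount of 1 and 0.49 with a pseudocount of 64, and that of Fcer1a was -0.72 and -0.28.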
